A study of Mus musculus with 12 samples.

Results

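The comparison is between the colon of LAO1 knockout mice, measured on 3 arrays, and that of wild type mice, also measured on 3 arrays, so 6 of the 12 arrays of the series carry it. The arrays were taken by their genotype labels, and every probe with a gene name was read, which gave 19505 named genes among 22206 probes. All animals were healthy male mice aged 12 to 16 weeks, with no treatment named in the labels beyond their genotype. The other genotypes, used only to ask whether loss of LAO1 did the same elsewhere, were the double knockout (DKO, lacking LAO1 and IL4i1) and the IL4i1 knockout, each on 3 arrays. Per the labels, 4 mice of each genotype were picked at random, but the sources used here do not say whether an array held RNA of 1 mouse, so p-values describe the spread between these samples, part of which may be technical. The deletion made in each line, the mouse strain, the number of founder lines and whether littermates were compared are not stated in the labels.

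LAO1 is an L-amino acid oxidase. Enzymes of this family remove the amino group of free amino acids and release a keto acid, ammonia and hydrogen peroxide, and in mice Lao1 is best known as a milk protein of the mammary gland whose hydrogen peroxide acts against bacteria. Il4i1 encodes a related secreted oxidase of immune cells. In the colon wall, interferon from lymphocytes drives a group of GTPases and antigen presentation genes in epithelium and macrophages, and mucosal mast cells lodge in the epithelium filled with granule proteases. Those groups carried many of the differences described here.

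Values are deposited log2 expression values, in which 1 unit is a 2-fold step, and all lay between 1.72 and 19.93. The medians of the arrays lay between 5.42 and 5.49. A difference is the LAO1 knockout mean minus the wild type mean, with its standard error (SE) from limma, and it counts as past the test when the p-value adjusted over all 22206 probes was under 0.05. The Lao1 probe itself was near the bottom of the range, at 3.1, 2.68 and 3.24 in the LAO1 knockout and 3.24, 3.12 and 2.64 in wild type. A probe this dim checks nothing about the deletion, and no probe bore the name Il4i1, so the genotypes rest on the labels. One array stood apart, DKO replicate 2, where 15 measured genes of the pancreatic acinar cell, which makes digestive enzymes, had a mean level of 14.02, against 4.06 to 4.75 on the other 11 arrays. Comparisons with DKO arrays are therefore also given without it. Of 57 calls on named genes in them, 56 remained without DKO replicate 2, the exception being the interaction of the chemokine gene Ccl8.

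Sh3d19 was the single probe past the test in the LAO1 knockout, 1 of 22206 or 0.0045%. It encodes an adaptor protein with SH3 domains that binds ADAM metalloproteases and takes part in membrane traffic. Its level was 14.67, 14.96 and 15.08 in the LAO1 knockout, against 12.03, 11.79 and 12.11 in wild type. The groups were far apart, and the rise was 2.93 (SE 0.19, adjusted p = 1.81e-05), or 7.6-fold. It stayed past the test in each of the 19 alternative settings run, with a difference between 2.83 and 3.04. The DKO arrays read 14.9, 14.89 and 14.75 and the IL4i1 knockout arrays 15.28, 15.55 and 15.21, so wild type was the one genotype at the lower level. Where LAO1 was lost on top of IL4i1, the difference was -0.50 (SE 0.19, adjusted p = 0.399). The change in the effect of LAO1 loss between the IL4i1 states, here called the interaction, was -3.43 (adjusted p = 9.47e-05), and all 3 knockout genotypes shared the higher level. Of 28 listed partners of SH3D19 and genes of endocytosis, 27 were measured, Sh3d19 among them, and 1 had an unadjusted p under 0.05, Sh3d19 itself. Their median difference was -0.10, against 0.01 over all named genes.

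**Figure D1:**
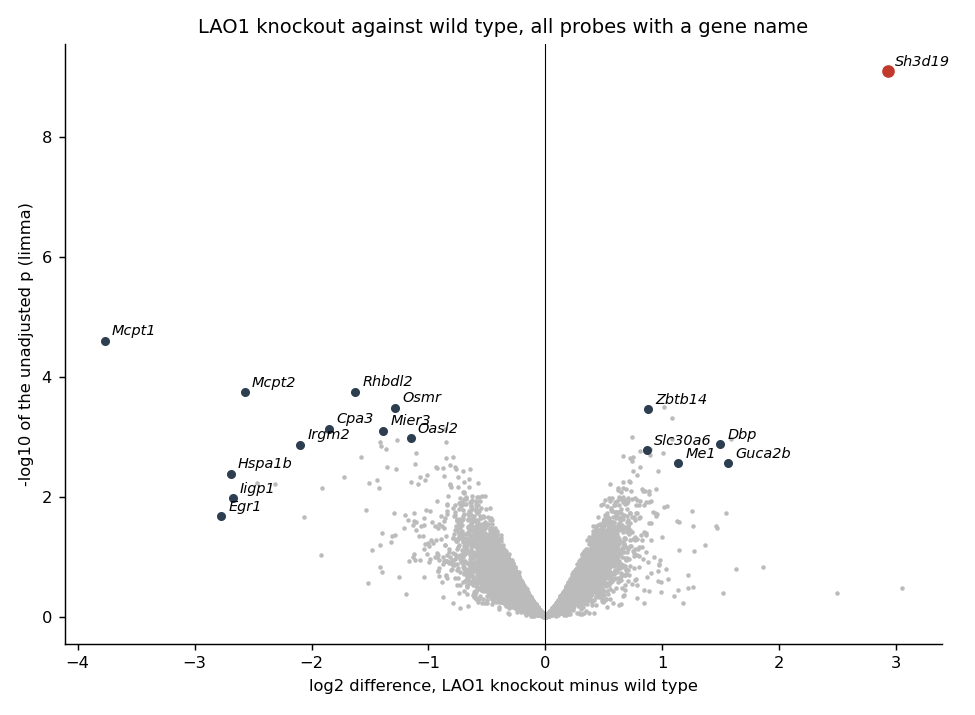
Each point is a probe with a gene name, placed by its log2 difference between LAO1 knockout and wild type colon (x) and by the negative log10 of limma's unadjusted p (y). Sh3d19, in red at 2.93, is the probe past the test after adjustment, and Mcpt1 at -3.77 has the next smallest p among the labelled genes, which are drawn in dark blue.

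With Sh3d19 counted among them, 321 probes were higher, and 349 were lower, at an unadjusted p under 0.05. Among named genes these were 285 higher (1.46%) and 312 lower (1.6%). Gene groups are read against those shares below, as descriptions, since no member of them passed the test after adjustment. All 3 knockout arrays stood above all 3 wild type arrays for 4.78% of named genes and below them for 3.87%. Of the 20 genes with the smallest p in each direction among the brighter probes, all 20 higher ones and 19 of the lower ones had groups that did not overlap. A choice by p in these same arrays favours such genes, so the counts lend them no support. Among the chosen genes not past the test, the lowest adjusted p was 0.282 for the lower genes and 0.88 for the higher ones.

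Rhbdl2, which encodes a rhomboid protease that cuts proteins within the membrane of epithelial cells, was low wherever LAO1 was lost. It read 6.97, 6.07 and 6.98 in the LAO1 knockout, against 8.67, 8.29 and 7.94 in wild type. The DKO arrays read 6.06, 6.47 and 6.65, against 8.9, 9.88 and 9.51 in the IL4i1 knockout. All 6 arrays without LAO1 lay below all 6 arrays with it. The difference from wild type was -1.63 (SE 0.32, adjusted p = 0.84), which did not pass. The DKO fell by 3.04 relative to the IL4i1 knockout (SE 0.32, adjusted p = 0.000701), in a comparison that shares no array with the one against wild type and in which 0.477% of probes passed. Set against the IL4i1 knockout, the LAO1 knockout differed by -2.76 (SE 0.32, adjusted p = 0.0168), the 1 probe of 22206 (0.0045%) past the test there. That call was lost in 5 of 19 alternatives.

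Nt5c1a, a cytosolic 5'-nucleotidase that turns AMP into adenosine, had the same order of groups at a lower level. It read 3.48, 3.68 and 4.09 in the LAO1 knockout, against 5.83, 5.97 and 4.18 in wild type. The DKO read 3.54, 3.96 and 4.02, against 6.04, 7.17 and 6.58 in the IL4i1 knockout. Again all 6 arrays without LAO1 lay below the other 6, although wild type replicate 3, at 4.18, was close to LAO1 knockout replicate 3, at 4.09. The difference from wild type was -1.58 (SE 0.42, adjusted p = 1), and that of the DKO from the IL4i1 knockout was -2.76 (SE 0.42, adjusted p = 0.00928).

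The differences over both IL4i1 states were then averaged, a contrast chosen after the data had been seen. It compares the 6 arrays without LAO1 with the 6 that have it, and 4 of 22206 probes (0.018%) passed. They were Sh3d19 (1.21, adjusted p = 0.00581), Rhbdl2 (-2.33, adjusted p = 0.00208), Nt5c1a (-2.17, adjusted p = 0.0374) and the sulfotransferase gene Sult1c2 (-1.44, adjusted p = 0.0443). Sh3d19 entered through the wild type arrays and Sult1c2 through the DKO arrays, since Sult1c2 differed by -0.10 from wild type in the LAO1 knockout. The call on Nt5c1a was lost in 11 of 18 alternatives, that on Sult1c2 in 9 of 18 and that on Rhbdl2 in 0 of 18, and without DKO replicate 2 the count of probes past the test was 16. The 6 arrays without LAO1 lay wholly to one side of the other 6 for 38 of 19505 named genes (0.195%), with Rhbdl2 and Nt5c1a among them, and without DKO replicate 2 for 96 (0.492%).

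Rhbdl2 and Nt5c1a lie on chromosome 4, as Lao1 does. In RefSeq's gene order, Nt5c1a is the 52nd protein-coding gene from Lao1 and Rhbdl2 the 61st, on the same side. Of the 200 protein-coding genes nearest to Lao1, 100 on either side, 183 were measured. Their median difference from wild type was -0.01. At an unadjusted p under 0.05, 5 were lower and 3 higher, against 1.6% and 1.46% of named genes. Guca2b, 18 genes away from Lao1, read 7.23, 8.59 and 7.78 in the LAO1 knockout, against 6.1, 6.15 and 6.66 in wild type. Guca2b encodes uroguanylin, a hormone of the surface epithelium that drives salt and water secretion, and its difference was 1.56 (SE 0.43, adjusted p = 1). Whether the sequence around the deletion differs between the lines was not tested.

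**Figure D2:**
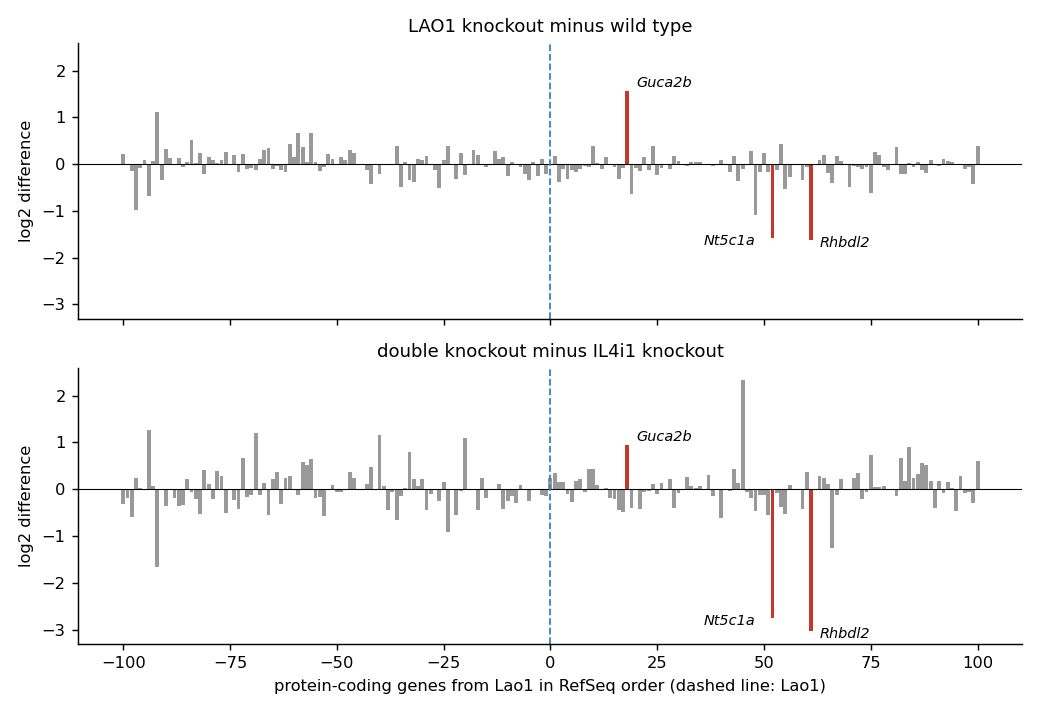
Bars give the log2 difference of each measured protein-coding gene near Lao1, by its place in RefSeq gene order (x), for the LAO1 knockout minus wild type (top) and the DKO minus IL4i1 knockout (bottom). Nt5c1a and Rhbdl2, in red, are below 0 in both panels, and Guca2b is above 0 in both.

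Interferon-inducible GTPases read lower in the LAO1 knockout than in wild type, with 0 of them past the test. These proteins gather on vacuoles that hold bacteria or parasites and break them open. Of 19 listed, 13 were measured, 9 reached an unadjusted p under 0.05 and were lower, and 0 had a positive difference, against 1.6% of named genes lower at that p. The median was -1.29, against 0.01 over all named genes. In bulk tissue fewer cells of a type and less RNA per cell cannot be told apart, here and for every cell type named after this.

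Irgm2 read 8.57, 7.16 and 6.79 in the LAO1 knockout, against 8.52, 9.61 and 10.68 in wild type, a difference of -2.10 (SE 0.52, adjusted p = 1). Knockout replicate 1 lay within the wild type range and wild type replicate 3 was the highest of the 6. Iigp1, which acts on the vacuole of Toxoplasma, read 5.03, 5.18 and 4.44 in the LAO1 knockout, against 5.12, 7.62 and 9.93 in wild type. The wild type arrays were spread widely for this gene, and the lowest of them was level with the knockout. Tgtp2 showed the same spread, with 7.4, 5.45 and 5.52 in the LAO1 knockout, against 6.68, 7.83 and 10.05 in wild type. Gbp7, a guanylate-binding protein, read 8.8, 8.42 and 7.68 in the LAO1 knockout, against 9.19, 9.78 and 10.17 in wild type, and its groups did not overlap (-1.41, SE 0.34, adjusted p = 1). Over the list, 2 of 13 members had groups that did not overlap, against 3.87% of named genes lower in that way.

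The mean level of the 13 GTPases was 6.83, 6.16 and 5.95 on the LAO1 knockout arrays, against 6.56, 7.56 and 8.43 on the wild type arrays. The wild type arrays thus differed among themselves by as much as the groups did. The median difference of the list was -0.88 when wild type replicate 3 was left out and -1.68 when wild type replicate 1 was. The Irgm2 difference was -1.56 without wild type replicate 3, and that of Iigp1 was -1.49.

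The windows of the RefSeq promoter table (GRCm38.p6, 250 bases before to 50 after each start) were searched on both strands for the interferon-stimulated response element, taken as 2 copies of GAAA with any 2 bases between them. Of the 13 measured GTPase genes, 8 had an entry used here, and Iigp1 was not among them. All 8 held the element in at least 1 promoter, against 1079 of 27025 genes in the table. By promoter it was 8 of 9, against 3.44% of the 32851 promoters in the table. These counts say nothing about the measured GTPase genes left out, which the shares for the whole table may still include. The sequences around the matches are given for several GTPase genes, with Isg15, an antiviral interferon gene, beside them. The likeness of the element between genes was set by the pattern searched for. Each runs 5' to 3' on the strand of the gene, and capitals mark the element, on either strand and joined where copies overlap.
Irgm2, chr11:58214893-58214942, plus strand: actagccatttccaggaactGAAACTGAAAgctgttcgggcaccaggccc
Igtp, chr11:58199502-58199551, plus strand: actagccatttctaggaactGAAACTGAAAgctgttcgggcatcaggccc
Tgtp2, chr11:49064253-49064302, minus strand: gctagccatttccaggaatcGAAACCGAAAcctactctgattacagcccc
Irgm1, chr11:48871421-48871470, minus strand: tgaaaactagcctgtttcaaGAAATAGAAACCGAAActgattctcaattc
Gm12250, chr11:58183732-58183826, plus strand: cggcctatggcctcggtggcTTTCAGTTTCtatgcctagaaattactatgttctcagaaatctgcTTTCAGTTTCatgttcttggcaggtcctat
Gbp2, chr3:142620584-142620633, plus strand: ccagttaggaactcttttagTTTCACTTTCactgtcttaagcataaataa
Gbp7, chr3:142530263-142530312, plus strand: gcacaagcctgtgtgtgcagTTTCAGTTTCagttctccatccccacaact
Isg15, chr4:156200855-156200916, minus strand: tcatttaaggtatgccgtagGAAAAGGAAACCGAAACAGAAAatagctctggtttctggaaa
The Irgm2 and Igtp windows matched at 48 of 50 bases. These windows lie before the start of the transcript. The likeness of the transcripts, and whether probes of related genes share signal on the array, was not tested. A second element, the gamma-activated site, taken as TTC and GAA with any 3 bases between them, was in a promoter of 5 of those 8 genes. By promoter it was 5 of 9, against 8.3% of all promoters. The first element was in a promoter of 14 of 21 measured antiviral genes with an entry, in 5 of 14 MHC class I genes and in 1 of 9 MHC class II genes. A match describes letters in a window and not binding.

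Antiviral interferon genes read lower as well, with 0 past the test. Of 30 measured among 32 listed, 8 reached an unadjusted p under 0.05 and were lower, against 1.6% of named genes, and the median was -0.30. Oasl2, an antiviral gene of the oligoadenylate synthetase family, read 8.1, 8.12 and 8.7 in the LAO1 knockout, against 8.96, 9.44 and 9.98 in wild type (-1.15, SE 0.28, adjusted p = 1), and its groups did not overlap. Cmpk2, a mitochondrial nucleotide kinase, varied little within groups, with 5.32, 5.34 and 5.44 in the LAO1 knockout and 6.04, 6.05 and 5.95 in wild type. The ubiquitin-like Isg15 (-0.57), the receptor chaperone Rtp4 (-0.93), the translation inhibitor Ifit2 (-0.63) and the ADP-ribosyltransferase Parp14 (-0.77) were the others named by p. Groups did not overlap for 9 of the 30 members, against 3.87% of named genes lower in that way.

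Genes tied to interferon gamma had a median of -0.15 over 18 measured of 21 listed. Cd274, which encodes the checkpoint ligand PD-L1, was the 1 with an unadjusted p under 0.05, at 5.9, 5.77 and 6.2 in the LAO1 knockout and 6.46, 6.95 and 6.98 in wild type. Ido1, the first enzyme of the kynurenine route of tryptophan breakdown, was low in the LAO1 knockout at 4.48, 4.37 and 3.85. In wild type it ran over 3.4, 5.93 and 7.91, and the difference of -1.51 (SE 1.34, adjusted p = 1) was -0.43 without wild type replicate 3.

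Antigen presentation genes leaned the same way. For MHC class I, which shows peptides from inside the cell to T cells, 16 of 19 listed genes were measured, with a median of -0.38. Of them, 5 reached an unadjusted p under 0.05 and were lower, against 1.6% of named genes. B2m, the light chain of class I, read 17.8, 17.35 and 17.24 in the LAO1 knockout, against 18.08, 18.28 and 19.25 in wild type (-1.07, SE 0.32, adjusted p = 1). H2-Q4, a nonclassical class I gene, read 8.25, 7.99 and 7.8 in the LAO1 knockout, against 8.76, 9.01 and 9.62 in wild type. Both were among the 6 of 16 members whose groups did not overlap, against 3.87% of named genes lower in that way. The heavy chain gene H2-K1 (-0.86) and the peptide transporter genes Tap1 (-1.21) and Tap2 (-0.76) were the other members at that p.

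For MHC class II, which shows peptides taken up from outside, 11 of 12 listed genes were measured. The median was -0.40, with 7 negative and 4 positive differences. Of the 11, 3 reached an unadjusted p under 0.05 and were lower, against 1.6% of named genes. H2-Eb1, a class II beta chain, read 9.77, 9.06 and 9.33 in the LAO1 knockout, against 10.84, 10.23 and 10.41 in wild type (-1.11, SE 0.29, adjusted p = 1). The groups did not overlap. H2-DMa, which helps load the peptide (-1.20), and H2-Ab1, another beta chain (-0.92), were the other 2. The class II median was -0.14 without LAO1 knockout replicate 2, the array with the lowest mean level of the list among the 6 compared. That mean level was 7.68, 6.41 and 7.09 on the LAO1 knockout arrays, against 7.51, 7.32 and 7.52 on the wild type arrays. Knockout replicate 1 was thus the highest of the 6, and without it the median was -0.775.

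**Figure D3:**
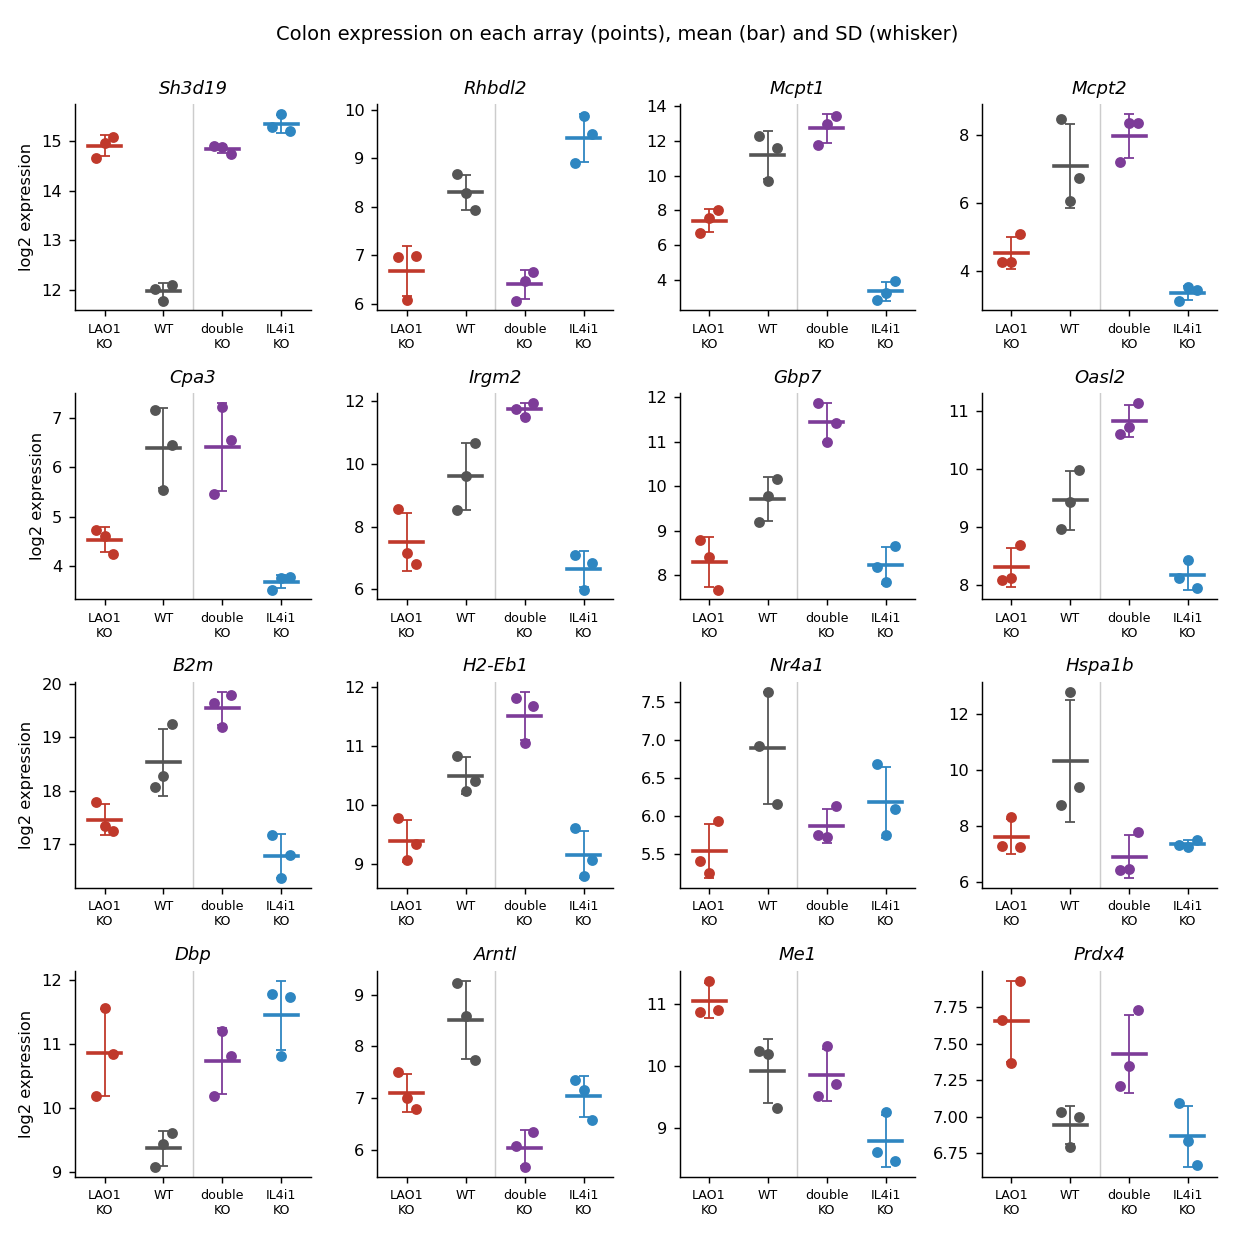
Log2 expression of 16 genes on each of the 12 arrays, with the mean as a bar and the SD as a whisker (n = 3 arrays per genotype). In each panel the LAO1 knockout stands left of wild type and the DKO left of the IL4i1 knockout, and Sh3d19 is at 14.67 to 15.08 in the LAO1 knockout and at 11.79 to 12.11 in wild type.

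Proteases of mucosal mast cells read far below wild type in the LAO1 knockout, without passing the test. Mcpt1, a granule chymase that loosens the epithelial barrier when worms are expelled, read 6.68, 7.55 and 8.02 in the LAO1 knockout, against 12.3, 9.68 and 11.58 in wild type. The groups did not overlap, and the difference was -3.77 (SE 0.60, adjusted p = 0.282). Without wild type replicate 2 it was -4.52 and passed (adjusted p = 0.0126). Mcpt2, a second mucosal chymase, read 4.24, 4.24 and 5.07 in the LAO1 knockout, against 8.47, 6.07 and 6.73 in wild type (-2.57, adjusted p = 0.84). The granule carboxypeptidase Cpa3 read 4.74, 4.61 and 4.25 in the LAO1 knockout, against 7.16, 5.54 and 6.46 in wild type (-1.85, adjusted p = 1).

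All 18 listed mast cell genes were measured, and 5 reached an unadjusted p under 0.05 and were lower, against 1.6% of named genes. The other 2 of the 5 were the chymase genes Cma2 (-1.28) and Mcpt4 (-0.75), of which Mcpt4 belongs to connective tissue mast cells. The other 13 members ran from -0.42 to 0.58, with 9 of them negative. The median of the list was -0.21, and it was -0.75 when dim probes were left out, with fewer members, and -0.13 without LAO1 knockout replicate 1 or wild type replicate 3. The mean level of the list was 4.67, 4.82 and 4.8 on the LAO1 knockout arrays, against 5.62, 5.1 and 5.39 on the wild type arrays. Genes of eosinophils and type 2 immunity, 16 measured, had a median of -0.26, which was -0.01 without wild type replicate 1, -0.15 without wild type replicate 3 and -0.13 with array weights, and 0 members at an unadjusted p under 0.05, and tuft cell genes, 14 measured, had a median near 0.

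Markers of macrophages, monocytes and dendritic cells had a median of -0.29 over 25 measured of 27 listed, and of -0.11 without wild type replicate 1, -0.46 without LAO1 knockout replicate 1 and -0.54 without wild type replicate 3. At an unadjusted p under 0.05, 5 were lower and 0 higher, against 1.6% and 1.46% of named genes. The 5 were the monocyte chemokine receptor Ccr2 (-0.70), the Fc receptor Fcgr3 (-1.06), the chemokine Ccl8 (-1.29), the mannose receptor Mrc1 (-1.08) and the fractalkine receptor Cx3cr1 (-0.73). Ccr2 read 4.21, 3.98 and 4.17 in the LAO1 knockout, against 5.14, 4.7 and 4.63 in wild type, with no overlap. Fcgr3 overlapped, with 8.86, 8.15 and 8.5 in the LAO1 knockout and 10.5, 9.79 and 8.41 in wild type. The mean level of the list was 6.11, 5.62 and 5.83 in the LAO1 knockout, against 6.62, 6.18 and 5.8 in wild type. Macrophages also carry MHC class II and GTPase genes, and the part of these cells in those differences was not tested.

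B cell markers ran the other way, with a positive difference in 17 of 17 measured genes and a median of 0.35. None had an unadjusted p under 0.05 by limma and none passed after adjustment. The follicle chemokine Cxcl13 read 10.72, 5.88 and 8.3 in the LAO1 knockout, against 7.55, 5.43 and 6.33 in wild type, and the B cell scaffold gene Bank1 read 7.03, 4.58 and 5.47 in the LAO1 knockout, against 5.11, 4.18 and 4.88 in wild type. Knockout replicate 1 was the high array for both, and without it the median of the list was -0.01. T, NK and innate lymphoid cell genes, 23 measured, had a median of 0.03, plasma cell genes a median of 0.00 over 12, and neutrophil genes -0.14 over 13.

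**Figure D4:**
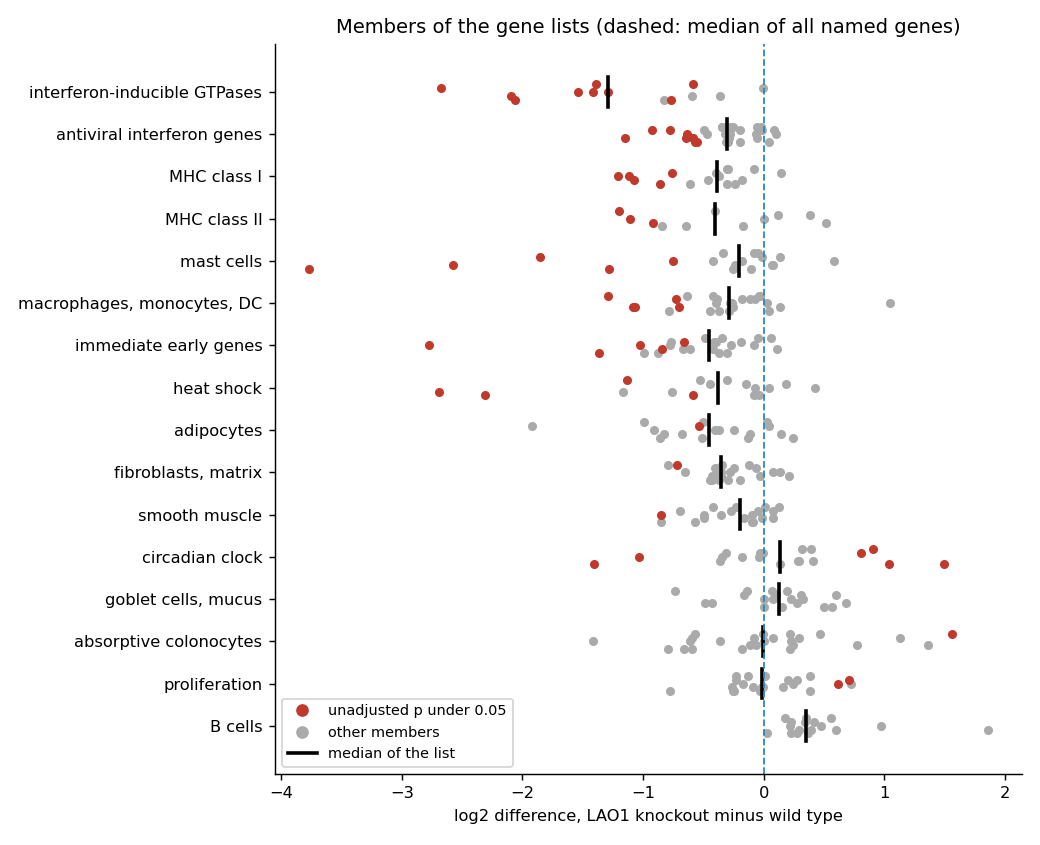
Each point is a gene of a list, placed by its log2 difference between LAO1 knockout and wild type colon (x), with points under an unadjusted p of 0.05 in red and the list median as a black bar. The medians run from -1.29 for interferon-inducible GTPases to 0.35 for B cells, and the dashed line is the median of all named genes, 0.01.

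Immediate early genes, transcription factors switched on within minutes of a stimulus, read lower in the LAO1 knockout, with 0 past the test. Of 24 measured, 5 reached an unadjusted p under 0.05 and were lower, against 1.6% of named genes. A negative difference was found in 22, against 9581 of 19505 named genes, and the median was -0.45. The nuclear receptor gene Nr4a1 read 5.42, 5.26 and 5.94 in the LAO1 knockout, against 6.92, 7.63 and 6.16 in wild type (-1.36, SE 0.35, adjusted p = 1), and the groups did not overlap. Its relatives Nr4a3 (-1.03) and Nr4a2 (-0.84) and the zinc finger genes Egr1 (-2.77) and Egr2 (-0.66) were the others. Egr1 ranged widely, with 10.24, 8.55 and 10.51 in the LAO1 knockout, against 13.15, 13.92 and 10.55 in wild type. Not counted among those 5 genes, Dusp6, a phosphatase that dampens ERK signalling, differed by -1.36. Sgk1, a kinase induced by glucocorticoids and salt and not counted there either, differed by -1.18.

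Heat shock genes had a median of -0.38 over 16 measured, and 4 were lower at an unadjusted p under 0.05, against 1.6% of named genes. The inducible chaperone Hspa1b read 7.29, 8.32 and 7.22 in the LAO1 knockout, against 8.73, 12.79 and 9.38 in wild type. Wild type replicate 2 stood far above the rest, and without it the difference was -1.45 in place of -2.69. For Hspa1a, a near-identical copy whose probe signal may be shared, the difference was -2.31, and -1.13 without that array. The cochaperone genes Dnajb1 (-1.13) and Dnajb4 (-0.59) were the other 2. The median of the list was -0.10 without wild type replicate 2, which also had the highest Egr1 and Nr4a1.

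Genes of the circadian clock stood on both sides of wild type, with 0 past the test. Dbp, a transcription factor and direct output of the clock, read 10.19, 11.56 and 10.85 in the LAO1 knockout, against 9.07, 9.43 and 9.61 in wild type (1.5, SE 0.37, adjusted p = 1). Per3 (1.04), Ciart (0.90) and Nr1d1 (0.81), which are repressors switched on by the same factor pair, were higher too at an unadjusted p under 0.05. The activator gene Arntl, which encodes BMAL1, read 7.51, 7.01 and 6.8 in the LAO1 knockout, against 9.23, 8.59 and 7.73 in wild type (-1.41, SE 0.35, adjusted p = 1), and Npas2, a partner of BMAL1, differed by -1.04. Thus 6 of 19 measured clock genes reached an unadjusted p under 0.05, with 4 higher and 2 lower, against 1.46% and 1.6% of named genes. In mouse tissues Arntl and Npas2 are known to peak opposite in time to Dbp and Nr1d1. The mice lived with 14 hours of light a day, but the labels do not state the hour of collection of each sample, and its part was not tested.

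A few metabolic and epithelial genes were higher in the LAO1 knockout without passing the test. Me1, the cytosolic malic enzyme that makes NADPH, read 10.87, 11.38 and 10.91 in the LAO1 knockout, against 10.24, 10.2 and 9.32 in wild type (1.13, SE 0.31, adjusted p = 1). Idh2, the mitochondrial NADPH source, differed by 0.75. Prdx4, a peroxiredoxin that breaks down hydrogen peroxide in the endoplasmic reticulum, read 7.66, 7.37 and 7.93 in the LAO1 knockout, against 7.03, 6.79 and 7 in wild type (0.71, SE 0.22, adjusted p = 1). All 6 arrays without LAO1 were above the 6 with it for Prdx4, and the same held for the cytosolic peroxiredoxin gene Prdx2, which differed by 0.34 from wild type. Hydrogen peroxide and amino acid oxidase genes as a list had a median of -0.05 over 34 measured and 1 member, Prdx4, at an unadjusted p under 0.05.

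Itln1, an intestinal lectin that binds bacterial sugars, read 12.36, 14.49 and 13.88 in the LAO1 knockout, against 11.41, 12.32 and 12.37 in wild type (1.54, SE 0.58, adjusted p = 1). The acute phase genes Saa2 (1.14) and Saa1 (1.36) stood higher and the oncostatin M receptor Osmr lower, at 5.16, 5.67 and 5.57 in the LAO1 knockout and 6.88, 7.12 and 6.26 in wild type (-1.29, SE 0.27, adjusted p = 0.88). Zbtb14, a zinc finger repressor, had the next smallest p among the brighter higher genes after Sh3d19, with 7.86, 7.87 and 7.63 in the LAO1 knockout, against 6.99, 7.06 and 6.67 in wild type. The zinc transporter gene Slc30a6 (0.87) had groups that did not overlap either. The proliferation genes Fen1 (0.71) and Pcna (0.62), both of DNA replication, were higher at an unadjusted p under 0.05. Of the 22 measured proliferation genes, 2 were higher at that p, against 1.46% of named genes, and 12 had a negative difference. The median of the list was -0.01.

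Several lists close to the known chemistry of the enzyme stayed near the median of all genes. Aromatic amino acid and tryptophan catabolism had a median of -0.01 over 24 genes, aryl hydrocarbon receptor targets 0.02 over 13, amino acid transporters -0.09 over 25 and ATF4 stress targets -0.04 over 21. None of these 4 lists had a member at an unadjusted p under 0.05 by limma, and none had a member past the adjusted threshold. Goblet cell and mucus genes had a median of 0.13 over 20, and absorptive colonocyte genes 0.00 over 25. Muc2, the main colon mucin, sat at the ceiling of the scale, 19.93, on all 6 arrays, so a difference there could not be read.

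Adipocyte genes had a median of -0.45 over 18, which was -0.30 without wild type replicate 3. Of them, 8 were below wild type on all arrays, against 3.87% of named genes. The lipid droplet gene Plin4 (-0.54) was the 1 member at an unadjusted p under 0.05, against 1.6% of named genes lower at that p. Fibroblast and matrix genes had a median of -0.35 over 24, which was -0.18 without wild type replicate 1, -0.21 without wild type replicate 2 and -0.56 without wild type replicate 3. Smooth muscle genes had a median of -0.20 over 20, which turned to 0.06 without LAO1 knockout replicate 1 and ran over -0.40 to -0.09 when one of the others of the 6 arrays was left out. Adipoq, the hormone of fat cells, read 5.1, 4.46 and 4.07 in the LAO1 knockout and 4.76, 5.58 and 5.87 in wild type, and the glycerol channel gene Aqp7 differed by -0.85. Hoxb13, a marker of the hindmost gut, varied between arrays of 1 genotype and read 6.53, 3.1 and 5.46 in the LAO1 knockout and 6.2, 2.71 and 3.82 in wild type. Over the 19 measured genes of the position list that holds it, the mean level was 5.05, 5.39 and 5.19 in the LAO1 knockout, against 5.18, 4.93 and 5.07 in wild type. Reg4, a gene of secretory cells, read 18.5, 11.15 and 15.64 in the LAO1 knockout and 16.24, 10.1 and 9.8 in wild type. Pancreatic acinar and small intestine genes had medians of 0.00 and 0.05, and the part of tissue composition in the differences above was not tested.

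Where IL4i1 was lost too, the difference made by loss of LAO1 took the same sign for 9477 of 19505 named genes and the opposite sign for 9959, and without DKO replicate 2 for 9777 and 9697. The DKO minus IL4i1 knockout difference shares no array with the LAO1 knockout minus wild type difference, and over all named genes both sets of differences correlated at r = -0.151 (Spearman's rho -0.05), or -0.103 (-0.0037) without DKO replicate 2, as a description across genes, which share the scale and the probes and are not independent. Of 120 genes with an unadjusted p under 0.05 in both, 34 had the same sign and 86 the opposite one, and 64 of the 86 were lower in the LAO1 knockout and higher in the DKO. Without DKO replicate 2, 47 of 131 had the same sign and 84 the opposite one. The interaction was past the test for 51 of 22206 probes (0.23%), 46 of them named genes, of which 41 were lower in the LAO1 knockout than in wild type and higher in the DKO than in the IL4i1 knockout. Without DKO replicate 2 it was past the test for 74 probes, with 57 of 62 named genes of that kind. Opposite signs make an interaction larger, so those counts choose for them.

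Mcpt1 was one of these. It read 11.77, 12.95 and 13.41 in the DKO, against 2.88, 3.26 and 3.95 in the IL4i1 knockout, a rise of 9.35 (SE 0.60, adjusted p = 1.47e-05), and the interaction was 13.12 (SE 0.85, adjusted p = 1.62e-05). All 13 measured GTPases were higher and past the test in the DKO relative to the IL4i1 knockout. The share of probes past it there, in either direction, was 0.477%. Of the 13, 11 had an interaction past the test. Without DKO replicate 2 these counts were 13 and 12. Irgm2 read 11.77, 11.51 and 11.94 in the DKO, against 7.09, 5.99 and 6.84 in the IL4i1 knockout (5.10, SE 0.52, adjusted p = 0.000701). Irgm2 was 0.87 higher in the LAO1 knockout than in the IL4i1 knockout, which did not pass (SE 0.52, adjusted p = 0.856). Of the MHC genes, 16 of 16 class I and 8 of 11 class II members had a positive difference between the DKO and the IL4i1 knockout, and 10 and 4 of them passed the test, against the same 0.477% of probes. The interaction was past the test and positive for 6 class I and 3 class II members, and without DKO replicate 2 for 9 and 4. These rises start from low IL4i1 knockout arrays. The mean level of the mast cell list was 4.18, 4.36 and 4.31 there, against 5.62, 5.1 and 5.39 in wild type. For the GTPases it was 5.88, 5.65 and 6.06, against 6.56, 7.56 and 8.43. For class I it was 9.41, 9.17 and 9.23, against 9.76, 9.98 and 10.49. Lower levels of these 3 lists were thus not particular to the LAO1 knockout.

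**Figure D5:**
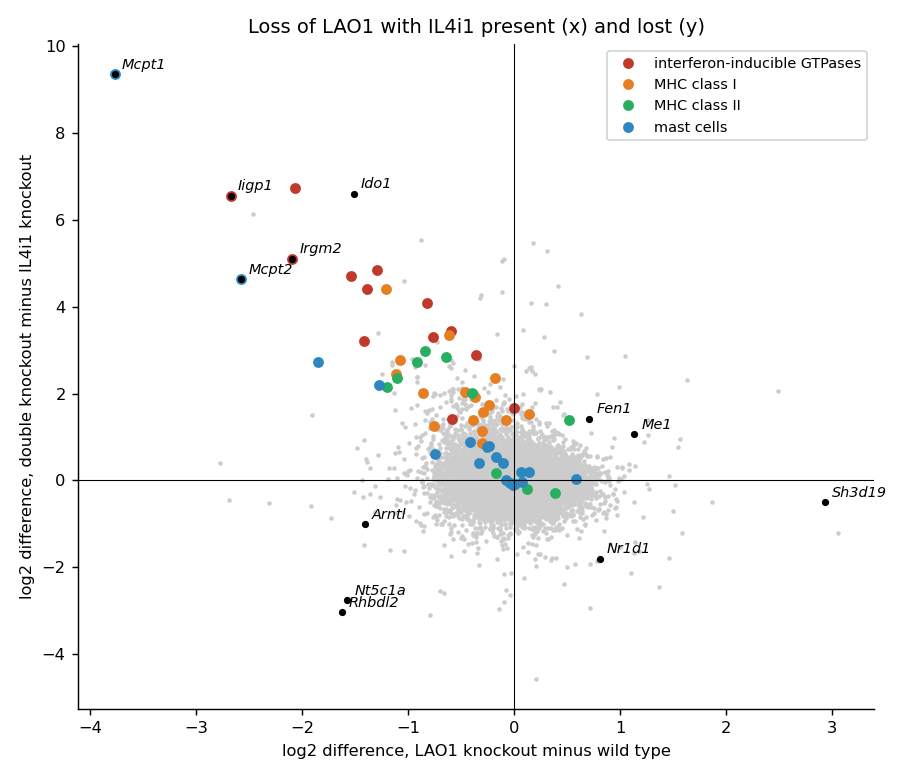
Each point is a named gene, placed by its log2 difference between LAO1 knockout and wild type (x) and between the DKO and the IL4i1 knockout (y), which share no array. Mcpt1 (-3.77 and 9.35) and Irgm2 (-2.10 and 5.10) lie at the upper left with the other GTPases, and Rhbdl2 (-1.63 and -3.04) lies at the lower left.

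Among genes at an unadjusted p under 0.05 in both IL4i1 states, those with the same sign were fewer. Besides Rhbdl2 and Nt5c1a they included Me1, which read 9.52, 10.32 and 9.71 in the DKO, against 8.62, 9.26 and 8.47 in the IL4i1 knockout (1.07, SE 0.31, adjusted p = 0.214). The clock genes Arntl and Npas2 stood lower in both, with -1.0 and -1.61 in the DKO relative to the IL4i1 knockout, but Nr1d1 was not, since it fell by 1.80 there (adjusted p = 0.0103) while it differed by 0.81 in the LAO1 knockout. The zinc finger gene Zfp229 read 5.97, 6.04 and 6.1 in the LAO1 knockout, against 7.07, 6.91 and 6.76 in wild type, and the potassium channel partner gene Kcnip4 read 6.73, 6.53 and 6.82 in the LAO1 knockout, against 7.62, 7.47 and 7.29 in wild type. For both, all 6 arrays without LAO1 lay below the other 6. Fen1 rose in the DKO relative to the IL4i1 knockout by 1.42 (adjusted p = 0.0439), a call lost in 9 of 19 alternatives, and Pcna differed by 0.82 (adjusted p = 0.266).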

How the data were processed

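Colon RNA was measured on 12 Affymetrix arrays, 3 for each of 4 genotypes, grouped by their titles. Per the labels' protocols, RNA was taken up in ISOGEN II and 6 µg of it was made into biotin-labelled cRNA. The authors deposited log2 expression values for 22206 probes, used here as they stand. The tool named in the submitters' processing notes is Transcriptome Analysis Console, with no version. Neither the labels nor the notes state the background correction, normalization or genome build. Any 2 arrays correlated at 0.964 to 0.99 and held equal values at 0.581% to 1.17% of probes. Arrays have no read depth, so their number limits the precision, and 22 probes reached the ceiling of the scale on at least 1 array. Of the probes, the platform's annotation gave 19572 a single symbol, 0 several and 2634 none.

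Tests used limma 3.58.1 under R 4.3.3 (lmFit, eBayes, two-sided, no filter) in 1 fit over all 12 arrays with 8 residual degrees of freedom, adjusted by Benjamini-Hochberg over all probes, and the fit was checked on simulated data. The 43 gene lists, with the brightest probe of each gene, were described by counts and medians. Genes were named by rule: every gene past the threshold, the 20 smallest p in each direction among probes brighter than the median, up to 6 members of each list by p, the first 4 markers of each cell type, and the 10 largest called differences each way of the other comparisons. The members, lists and comparisons were chosen with earlier results of these data known. Alternatives were a replicate block, quantile normalization, centring, a filter on dim probes, a trended and robust prior, array weights, only the arrays compared, and each array left out. The tallies without DKO replicate 2 were added after seeing the data. After removal of group means, same-numbered LAO1 knockout and wild type arrays correlated at 0.03 to 0.191 and unlike-numbered ones at -0.203 to 0.063. These values do not settle whether the numbers mark pairs. The main fit did not take them as pairs, and the replicate block did. Tables and figures used Python 3.11.15, pandas 2.3.3 and matplotlib 3.10.9.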

Additional observations from a re-analysis of the deposited data

Results flagged for a closer look

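The genes listed here stood out because the difference made by loss of LAO1 was itself different between mice that kept IL4i1 and mice that lacked it. The value given for each is the interaction, the DKO minus IL4i1 knockout difference less the LAO1 knockout minus wild type difference, on the log2 scale, and each passed limma's test at an adjusted p under 0.05.

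For mast cell proteases it was 13.12 for Mcpt1, 7.20 for Mcpt2, 4.57 for Cpa3 and 3.49 for Cma2. For interferon-inducible GTPases it was 9.22 for Iigp1, 8.80 for Tgtp2, 7.20 for Irgm2, 6.24 for Igtp, 6.13 for Gm12250, 5.79 for Gbp2, 4.91 for Irgm1, 4.62 for Gbp7 and 2.00 for Gbp9. Other interferon-regulated genes were Oasl2 at 3.81, Parp14 at 2.20 and the checkpoint ligand gene Cd274 at 3.5. For antigen presentation it was 5.62 for Tap1, 3.84 for B2m, 3.56 for H2-Q4, 2.86 for H2-K1, 3.64 for H2-Ab1 and 3.47 for H2-Eb1. The monocyte chemokine Ccl8 had 4.67. In all of these the LAO1 knockout read below wild type while the DKO read above the IL4i1 knockout. The IL4i1 knockout arrays were themselves below wild type in the mean level of the mast cell, GTPase and MHC class I lists.

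Negative interactions were found for Sh3d19 at -3.43, for the clock repressor Nr1d1 at -2.60 and for the sulfotransferase Sult1c2 at -2.69. Sult1c2 read 6.84, 6.95 and 6.64 in the LAO1 knockout and 7.04, 6.44 and 7.25 in wild type, and 5.44, 4.84 and 4.71 in the DKO against 8.32, 7.39 and 7.64 in the IL4i1 knockout.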

How the results depend on the processing

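For the LAO1 knockout against wild type, 1 probe passed in 17 of 19 alternatives, the replicate block included, and leaving out 1 array gave 1 to 4. Without LAO1 knockout replicate 1 the count was 4, from 3 probes with no gene name besides Sh3d19, and without wild type replicate 2 it was 2, with Mcpt1. Against the IL4i1 knockout the count of 1 became 3 with the replicate block, 3 with a trended and robust prior, 3 with array weights, 2 with arrays centred on their medians and 0 with only the arrays compared. It ran over 0 to 4 when 1 array was left out, and was 0 without LAO1 knockout replicate 2 or 3 or IL4i1 knockout replicate 2 or 3, 4 without LAO1 knockout replicate 1, 3 without wild type replicate 3, and 2 without wild type replicate 2 or DKO replicate 2. For the DKO against the IL4i1 knockout, 106 became 166 with the replicate block and 33 with only the arrays compared. It ran over 46 to 174 when 1 array was left out, with 46 without DKO replicate 1, 174 without DKO replicate 2, 51 without IL4i1 knockout replicate 2 and 61 without IL4i1 knockout replicate 3. The interaction count of 51 ran over 37 to 74. The average over both IL4i1 states, added after seeing the data, gave 4 and ran over 2 to 16. It was 16 without DKO replicate 2, 2 without LAO1 knockout replicate 2 or 3 or IL4i1 knockout replicate 2 or 3, and 6 with centred arrays or array weights. The cause of these shifts was not tested, beyond the fewer arrays. The dim Lao1 probe, at 0.01, turned to -0.023 with quantile normalization and -0.039 with array weights, and ran over -0.17 to 0.17 when 1 array was left out. Sult1c2, at -0.10, turned to 0.057 with array weights and ran over -0.34 to 0.07 when 1 array was left out, with 0.07 without wild type replicate 3. The other genes with values recomputed kept their direction in this comparison in every alternative run. In all 3 LAO1 knockout arrays the best correlated wild type deviation was that of the same number, a hint from the data and not from the design. Medians of 26 of 43 lists changed sign in some alternative, and those of the GTPases (-1.68 to -0.88), MHC class I (-0.50 to -0.33), antiviral genes (-0.46 to -0.23) and immediate early genes (-0.67 to -0.32) did not. Calls in the interaction were lost in 12 of 18 alternatives for Parp14, 10 for Ccl8, 8 for H2-K1 and 1 for Iigp1.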
